A study of Mus musculus with 6 samples.

Results

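The 34 genes described here mark the walls of brain blood vessels: 24 are expressed by endothelial cells, which line the vessel, 8 by mural cells, which wrap it, and 2 encode the collagen IV chains of the vascular basement membrane. They were taken by gene symbol from a list of endothelial and mural genes, with the condition that a gene averaged a normalised count (reads divided by the size factor of the library) of at least 10 over the 6 libraries. All 34 of the 34 listed genes met this condition, out of 37620 genes in the table and 16127 genes that were tested. Bulk tissue dissected as prelimbic cortex was profiled by RNA sequencing in male C57Bl/6 mice aged 9 weeks. They were 3 mice given saline and 3 mice given ketamine at 30 mg/kg by intraperitoneal injection once a day for 5 days. Tissue was collected 2 days after the last injection. Each library came from 1 mouse, and mice are named by the number in their label: 1, 6 and 10 for saline and 3, 5 and 9 for ketamine. The comparison asks whether vascular transcripts differed after sub-chronic ketamine.

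In the brain, endothelial cells form the blood-brain barrier: tight junctions seal the gaps between cells, and transporters carry glucose, amino acids and hormones across them while efflux pumps return many drugs to the blood. Pericytes share the basement membrane with the endothelium of capillaries, and smooth muscle cells surround arteries and arterioles and set their calibre. Endothelial transcription depends on ETS factors such as Erg, which bind a GGAA core, and smooth muscle contractile genes depend on serum response factor, which binds CArG boxes.

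None of the 34 vascular genes passed the threshold, an adjusted p of 0.05 by limma, which 0.0% of all tested genes passed. The 2 genes whose saline and ketamine mice did not overlap (5.88% of the 34, where all ketamine mice were below saline in 4.66% of all tested genes) were Rgs5, a regulator of G protein signalling that marks pericytes, and Slco1c1, the barrier's thyroxine carrier, both lower in ketamine. The smooth muscle gene Acta2 had the widest interval. The bases upstream of these 3 genes are shown for that reason, from RefSeq on build GRCm38.p6, where 24 of the 34 genes had an entry. The RNA counts were made on build mm9, so these positions belong to GRCm38.p6 alone. Capitals mark a match to GGAAGT or its reverse complement ACTTCC in the first 2 sequences, and to a CArG-like element in the last 2, which is CC, 6 letters of which at most 1 is neither A nor T, and GG. Slco1c1 is at chr6:141524104-141524353 on the plus strand, Rgs5 at chr1:169655251-169655500 on the plus strand, and the stretches of Acta2 at chr19:34255438-34255467 and chr19:34255388-34255417 on the minus strand, both inside the RefSeq gene model of Acta2, which reaches further upstream than the start used here.
Slco1c1: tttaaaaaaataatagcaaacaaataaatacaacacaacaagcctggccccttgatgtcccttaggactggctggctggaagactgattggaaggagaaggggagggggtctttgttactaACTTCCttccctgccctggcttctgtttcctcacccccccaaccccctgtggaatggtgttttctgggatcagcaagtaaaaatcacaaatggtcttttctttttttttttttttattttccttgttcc
Rgs5: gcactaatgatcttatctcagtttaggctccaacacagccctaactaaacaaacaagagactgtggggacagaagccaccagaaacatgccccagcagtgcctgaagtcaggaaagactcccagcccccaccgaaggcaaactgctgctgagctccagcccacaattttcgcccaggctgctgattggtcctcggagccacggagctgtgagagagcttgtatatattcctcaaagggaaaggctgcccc
Acta2, first stretch: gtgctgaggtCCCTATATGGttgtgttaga
Acta2, second stretch: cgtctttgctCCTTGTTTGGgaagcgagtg

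The Slco1c1 window held 1 match, ACTTCC, whose first base lay 129 bases before the gene's start, and the Rgs5 window held none. GGAAGT on either strand was found in the 250 upstream bases of 8 of the 24 vascular genes with an entry (Anpep, Eng, Flt1, Kdr, Ly6c1, Nostrin, Slco1c1 and Tie1). It was found in 28.6% of the 28 windows of these genes and in 19.7% of all 32851 mouse windows of that length. The CArG-like elements of Acta2 began 84 and 34 bases before its start, and 8.59% of all windows held such an element. CArG-like elements were also found upstream of Eng, Kdr, Ocln and Slco1a4, which are not smooth muscle contractile genes. These are letter matches, and no binding was measured.

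The libraries held 26273436 to 32643726 reads assigned to genes. Of the 16127 genes tested, 0 passed an adjusted p of 0.05 by limma and 937 had an unadjusted p under 0.05, while edgeR called 0 and DESeq2 called 182 (145 higher and 37 lower in ketamine). Genes of other cell types and brain regions set libraries apart. Striatal neuron genes averaged 3.52 and 2.43 log2 units above the saline mean in ketamine mice 3 and 5, red blood cell genes 2.41 units above it in ketamine mouse 9, and oligodendrocyte genes 1.86 units above it in saline mouse 10. Olfactory bulb genes were above the saline mean in all 3 ketamine mice (1.79, 1.23 and 3.46 units in mice 3, 5 and 9). The 6 choroid plexus genes tested were at -1.56, -0.55 and 2.11 in saline mice 1, 6 and 10. In ketamine mice 3, 5 and 9 they were at 1.06, -0.0041 and 1.09. Cortical excitatory neuron genes were read in every library, with summed normalised counts of 144947 to 192015 in saline and 95568 to 157272 in ketamine. They were lower in ketamine for 9 of 10 genes (median -0.58), with means of -1.01, -0.18 and -0.65 in mice 3, 5 and 9. Whether all dissections held the same tissue was not tested, nor was the part of dissection in the comparison of saline and ketamine.

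All vascular genes were well above the filter, with means from 102 for Nostrin to 3276 for Rgs5 and no value under 89.8 in any mouse. Levels between genes were compared as normalised counts per kilobase of exon. Itm2a, an endothelial membrane protein, was highest at 1076 ± 254 (SD, n = 6 mice), followed by Slc2a1, the barrier's glucose transporter, at 953 ± 154. Ly6c1 at 921 ± 242 and Vtn, a secreted protein of brain pericytes, at 904 ± 331 came next, and these 4 genes overlapped each other across mice. Rgs5 at 720.2 ± 93.3, Slco1c1 at 624 ± 46.6, the tight junction protein Cldn5 at 624 ± 168, the amino acid transporter Slc7a5 at 602 ± 52.6 and the organic anion carrier Slco1a4 at 518 ± 57.8 followed. The tenth, the lysolipid transporter Mfsd2a, was at 253 ± 31.3, and its highest mouse (291) was below the lowest mouse of every gene above it (452 for Cldn5). The lowest were Abcc9 at 37.3 ± 9.39, Vwf at 37.2 ± 5.94 and the sialomucin Emcn at 31.1 ± 5.45, which overlapped one another. All 6 barrier transporters were among the 12 highest genes. Ly6c1, Slco1a4 and Abcb1a have related neighbouring genes (such as Ly6c2 and Abcb1b). Reads that match more than 1 of them were not measured, so their levels are uncertain.

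**Figure D1:**
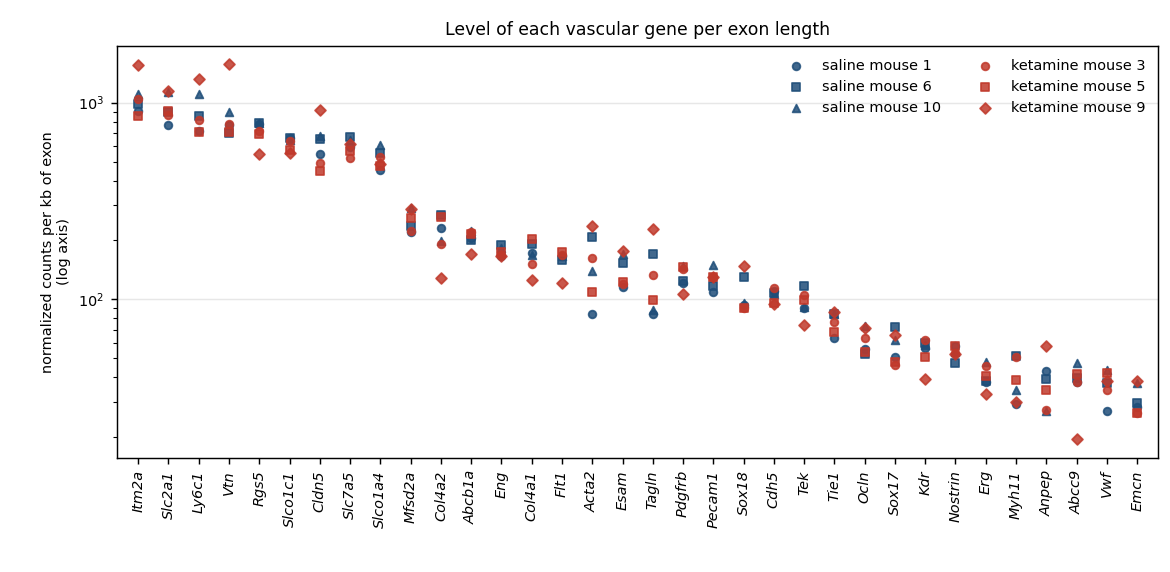
Normalised counts per kilobase of exon for the 34 vascular genes on a log axis, in order of their mean over 6 mice, with 1 marker per mouse. Itm2a, Slc2a1, Ly6c1 and Vtn lead, and Emcn is lowest at 31.1.

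No vascular gene was called: 0 of 34 passed an adjusted p of 0.05 by limma, where 0.0% of all tested genes were called, by edgeR, where 0.0% were called, or by DESeq2, where 1.13% were called. At an unadjusted p under 0.05 the count was also 0 of 34 by each of the 3 tools, where 5.81% of all tested genes passed by limma, 6.24% by edgeR and 6.54% by DESeq2. The smallest adjusted p among the 34 was 0.953 by limma. Log2 fold changes, ketamine against saline on the scale of log2(normalised count + 1), ran from -0.40 for Abcc9 to 0.42 for Tagln, and 26 of the 34 were within 0.2 of zero. There were 14 genes higher and 20 lower, with a median of -0.07 beside -0.01 over all genes tested. Every ketamine mouse was below every saline mouse for 2 of the 34 (5.88%), where 4.66% of all genes tested did so, and above for 0 of the 34, where 5.69% did so. The 95% interval of the difference lay within -1 and 1, a doubling either way, for 31 genes, the exceptions being Abcc9, Acta2 and Tagln. In bulk tissue, fewer cells of a type and less RNA per cell cannot be told apart.

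**Figure D2:**
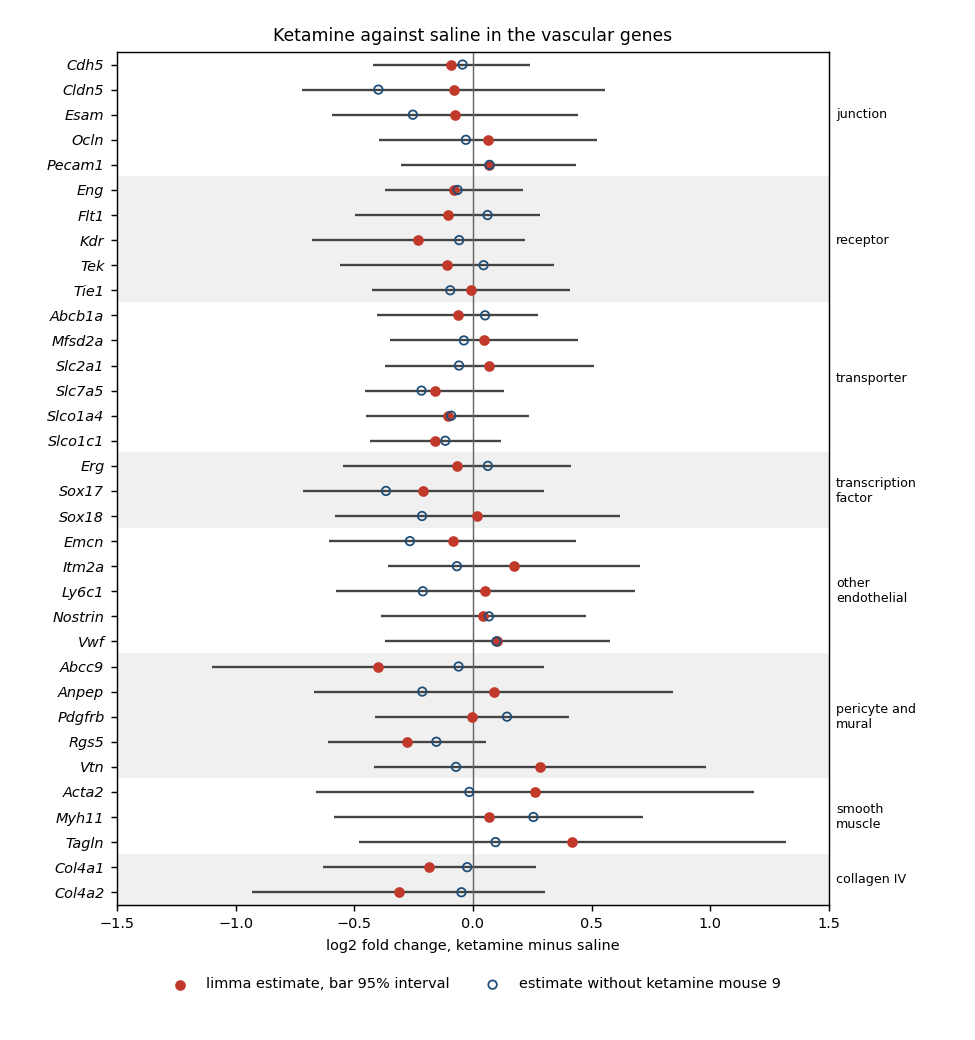
Log2 fold change, ketamine against saline, of each vascular gene with its 95% interval from limma (filled points and bars), grouped by role, and the same estimate without ketamine mouse 9 (open circles). Every interval crosses zero, and those of Acta2, Tagln and Anpep are the widest.

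Mice of a group differed from each other more in ketamine than in saline for 23 of the 34 genes, by the coefficient of variation. It had a median of 14.8% in saline and 18.4% in ketamine over the 34 genes, beside 12.9% and 19.4% over all genes tested. The highest mouse was over 1.5 times the lowest for 18 genes and over 2 times for 7. Ketamine mouse 9 was the highest of the 6 mice for 12 genes and the lowest for 13. Saline mouse 10 was highest for 10 genes and saline mouse 1 lowest for 10. Without ketamine mouse 9 there were 10 genes higher and 24 lower, the median was -0.06, and 14 genes changed sign.

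**Figure D3:**
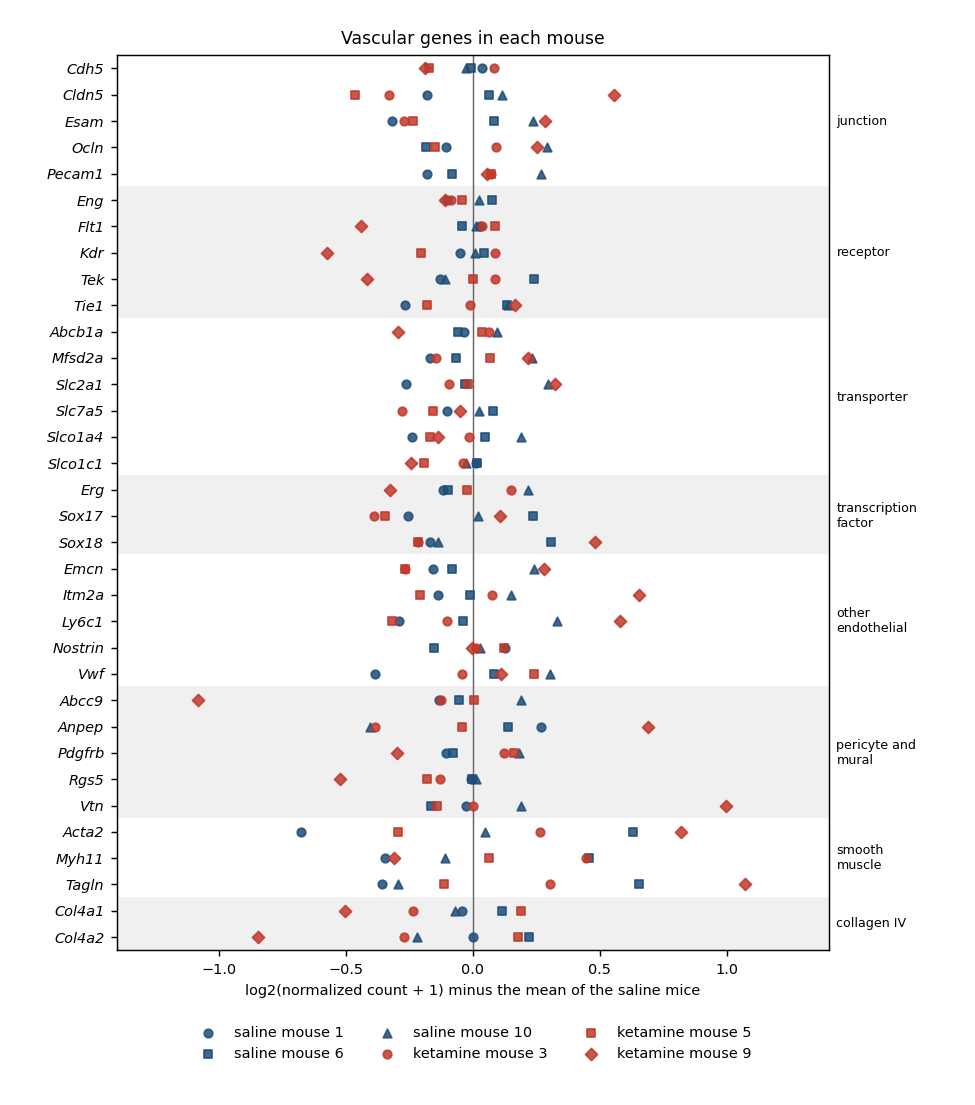
Log2 deviation of each vascular gene in each mouse from the gene's mean over saline mice, with genes in groups by role. Ketamine mouse 9 is high for Cldn5, Itm2a, Ly6c1 and Vtn and low for Abcc9, Kdr, Flt1 and Col4a2.

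Among the 5 junction and adhesion genes, 2 were higher and 3 lower in ketamine and none passed the test, with a median of -0.07. Cldn5 (ENSMUSG00000041378, mm9 chr16:18776940-18778353), the claudin that seals endothelial tight junctions, was read at 779, 922 and 956 normalised counts after saline (mice 1, 6 and 10, in that order for all genes) and at 701, 639 and 1295 after ketamine (mice 3, 5 and 9). Ketamine mice 3 and 5 were the lowest of the 6 and ketamine mouse 9 the highest, so the groups overlapped. The log2 fold change was -0.08 (95% interval -0.72 to 0.56), and -0.40 without ketamine mouse 9. Cdh5, the cadherin of endothelial adherens junctions, was steadier, at 423 to 441 in saline and 378 to 456 in ketamine (-0.09). The adhesion molecules Pecam1 and Esam, at 0.07 and -0.07, and the tight junction protein Ocln, at 0.06, also had overlapping groups.

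The 5 endothelial receptors all had lower means on the log2 scale in ketamine, except that Tie1 turned to slightly positive values by edgeR, under upper-quartile scaling and with centring by exon length. Their median was -0.11, and none passed the test. Without ketamine mouse 9, 2 receptors were higher and 3 lower, with a median of -0.06. Kdr (ENSMUSG00000062960, mm9 chr5:76328852-76374483), the main signalling receptor for VEGF-A, had 410.0, 437 and 427 in saline and 451, 369 and 285 in ketamine. Ketamine mouse 3 was the highest of the 6 and mice 5 and 9 the lowest. The log2 fold change was -0.23 (95% interval -0.68 to 0.22), and -0.06 without mouse 9. Flt1, the decoy VEGF receptor, had 1932, 1843 and 1915 in saline and 1943, 2017 and 1396 in ketamine, so mouse 9 alone was low. Its log2 fold change was -0.11, and 0.06 without mouse 9. Eng (ENSMUSG00000026814, mm9 chr2:32502115-32538189), a TGF-beta co-receptor, was among the least variable genes, with 644, 728 and 703 in saline and 650.0, 671 and 639 in ketamine (-0.08, 95% interval -0.37 to 0.21). Eng shares 124 exon bases on the same strand with the more abundant gene Ak1, so its count is uncertain. The angiopoietin receptor Tek and its partner Tie1 were at -0.11 and -0.0089.

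Of the 6 barrier transporters, 2 were higher and 4 lower, with a median of -0.09. Slc2a1 (ENSMUSG00000028645, mm9 chr4:118781316-118809935) had 2190, 2570 and 3221 in saline and 2458, 2589 and 3289 in ketamine, nearly the same range in both groups (0.07, 95% interval -0.37 to 0.51). Slco1c1 (ENSMUSG00000030235, mm9 chr6:141472907-141518241), which carries thyroxine, had 1806, 1809 and 1755 in saline and 1740, 1566 and 1513 in ketamine. Every ketamine mouse had less than every saline mouse, although ketamine mouse 3 (1740) lay close to saline mouse 10 (1755). The means were 1790 ± 30.2 and 1607 ± 119 (SD, n = 3 each, two-sided exact permutation p = 0.1, the smallest that 3 against 3 allows). The log2 fold change of Slco1c1 was -0.16 (SE 0.117, 95% interval -0.43 to 0.12, limma adjusted p = 0.999). The amino acid transporter Slc7a5 was also at -0.16, with overlapping groups (2082 to 2355 and 1841 to 2155). Slco1a4 at -0.11, the drug efflux pump Abcb1a at -0.06 and Mfsd2a at 0.05 made up the rest.

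The 3 endothelial transcription factors did not pass the test, with a median of -0.07, and -0.21 without ketamine mouse 9. Sox18 (ENSMUSG00000046470, mm9 chr2:181404541-181406345), a factor of endothelial differentiation, had 151, 211 and 155 in saline and 147, 147 and 238 in ketamine, with ketamine mice at both ends of the range (0.02, 95% interval -0.58 to 0.62). Erg, the ETS factor, was at -0.07, and Sox17, a factor of arterial endothelium, at -0.21 with a 95% interval of -0.72 to 0.30.

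Of the 5 other endothelial genes, 4 were higher and 1 lower, with a median of 0.05, but without ketamine mouse 9 there were 2 higher and 3 lower, with a median of -0.07. Itm2a (ENSMUSG00000031239, mm9 chrX:104592438-104598715) had 1574, 1719 and 1923 in saline and 1824, 1500 and 2726 in ketamine. Ly6c1 (ENSMUSG00000079018, mm9 chr15:74875447-74879260), a surface antigen of brain capillaries, had 603, 719 and 931 in saline and 688, 593 and 1105 in ketamine. Both genes were highest in ketamine mouse 9 and lowest in ketamine mouse 5, and their log2 fold changes of 0.17 and 0.05 were -0.07 and -0.21 without mouse 9. The clotting protein Vwf was at 0.10, Nostrin, which binds endothelial nitric oxide synthase, at 0.04 and Emcn at -0.08.

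Among the 5 pericyte and mural genes, 2 were higher and 3 lower, with a median of -0.0035, that of Pdgfrb, whose sign changed by edgeR, by DESeq2, under upper-quartile scaling and with centring by exon length. Rgs5 (ENSMUSG00000026678, mm9 chr1:171585632-171625944) had 3555, 3573 and 3604 in saline and 3272, 3159 and 2493 in ketamine. The saline mice lay close together, all 3 ketamine mice were below them, and mouse 9 was the lowest. The means were 3577 ± 25.0 and 2975 ± 421 (SD, n = 3 each, exact permutation p = 0.1). The log2 fold change of Rgs5 was -0.28 (SE 0.141, 95% interval -0.61 to 0.06, limma adjusted p = 0.953), and -0.15 without mouse 9. Vtn (ENSMUSG00000017344, mm9 chr11:78312593-78315826) had 1561, 1421 and 1816 in saline and 1590, 1443 and 3175 in ketamine. Mice 3 and 5 were inside the saline range and mouse 9 far above it, and the log2 fold change of 0.28 was -0.07 without mouse 9. Abcc9, a subunit of the potassium channel of pericytes and smooth muscle, had 284, 300.1 and 356 in saline and 286, 313 and 147 in ketamine. There mouse 9 alone was low, and the log2 fold change of -0.40 was -0.06 without it. The PDGF-B receptor Pdgfrb, which pericytes need to attach to vessels, was at -0.0035 (95% interval -0.41 to 0.40), and the aminopeptidase Anpep at 0.09.

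The 3 smooth muscle genes had higher means in ketamine, with a median of 0.26, and none passed the test. Their mean log2 value had a within-group SD of 0.44, the largest of the 8 roles. Acta2 (ENSMUSG00000035783, mm9 chr19:34315580-34329826), smooth muscle actin, had 149, 371 and 247 in saline and 288, 195 and 422 in ketamine. Both groups spanned more than a doubling, and the log2 fold change was 0.26 (95% interval -0.66 to 1.19). Tagln, an actin-binding protein of smooth muscle, had 133, 269 and 139 in saline and 211, 158 and 359.9 in ketamine (0.42, 95% interval -0.48 to 1.32). Tagln shares 65 exon bases on the opposite strand with Pcsk7, so its count is uncertain. Myh11, the smooth muscle myosin, had 194, 339.7 and 229.5 in saline and 338, 259 and 199 in ketamine (0.07). In all 3 genes saline mouse 1 was the lowest and saline mouse 6 was the highest of the saline mice. Without ketamine mouse 9 the log2 fold changes were -0.02 for Acta2, 0.10 for Tagln and 0.26 for Myh11. Genes of meningeal and perivascular fibroblasts, cells that lie along the same larger vessels, had higher means in ketamine for 12 of 12 genes with 0 called, and a summed count of 3881 to 6240 in saline and 4825 to 10345 in ketamine, the last in mouse 9. Without mouse 9 there were 8 of the 12 fibroblast genes higher and 4 lower, and their median log2 fold change was 0.10 in place of 0.42. Their part in the smooth muscle values was not tested.

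Both collagen IV genes were lower in ketamine and neither passed the test. Col4a2 (ENSMUSG00000031503, mm9 chr8:11312805-11449287) had 1527, 1779 and 1313 in saline and 1265, 1726 and 851 in ketamine (-0.31, 95% interval -0.93 to 0.30). Col4a1, its partner on the opposite strand, had 1174, 1308 and 1151 in saline and 1026, 1378 and 852 in ketamine (-0.18). In both genes ketamine mouse 5 lay within or above the saline range and mouse 9 was the lowest, and without mouse 9 the log2 fold changes were -0.05 and -0.02. The 2 genes share a start region and 22 exon bases.

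The deviations of ketamine mouse 9 followed exon length. Over all 16093 genes with a length, its log2 value stood apart from the median of the other 5 mice by a median of 0.34 for genes under 2 kb. This median was -0.18 for genes of 4 to 8 kb and -0.54 for genes over 8 kb. Among the vascular genes the median was 0.68 for the 7 genes under 2 kb (Ly6c1, Cldn5, Tagln, Sox18, Itm2a, Acta2 and Nostrin), of which 6 were above. It was -0.42 for the 13 genes of 4 to 8 kb, of which 10 were below. For the 2 genes over 8 kb, Flt1 and Vwf, it was -0.22, with 1 above and 1 below. The rank correlation of this deviation with exon length was -0.76 across the 34 genes and -0.45 across all genes, as a description, since genes of a library share its preparation and depth. Ketamine mouse 5 had the opposite trend (0.55 and 0.39). With each library centred within 20 bins of exon length, 16 vascular genes were higher and 18 lower and 0 were called. The smallest limma p was that of Rgs5, at 0.046 before adjustment and 0.685 after it. The median of the 34 was then -0.015 in place of -0.07. Single genes moved unequally under that centring: Flt1 was at -0.016 and Abcb1a at -0.015, from -0.11 and -0.06, while Rgs5 was at -0.26, Abcc9 at -0.35 and Vtn at 0.27, from -0.28, -0.40 and 0.28.

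**Figure D4:**
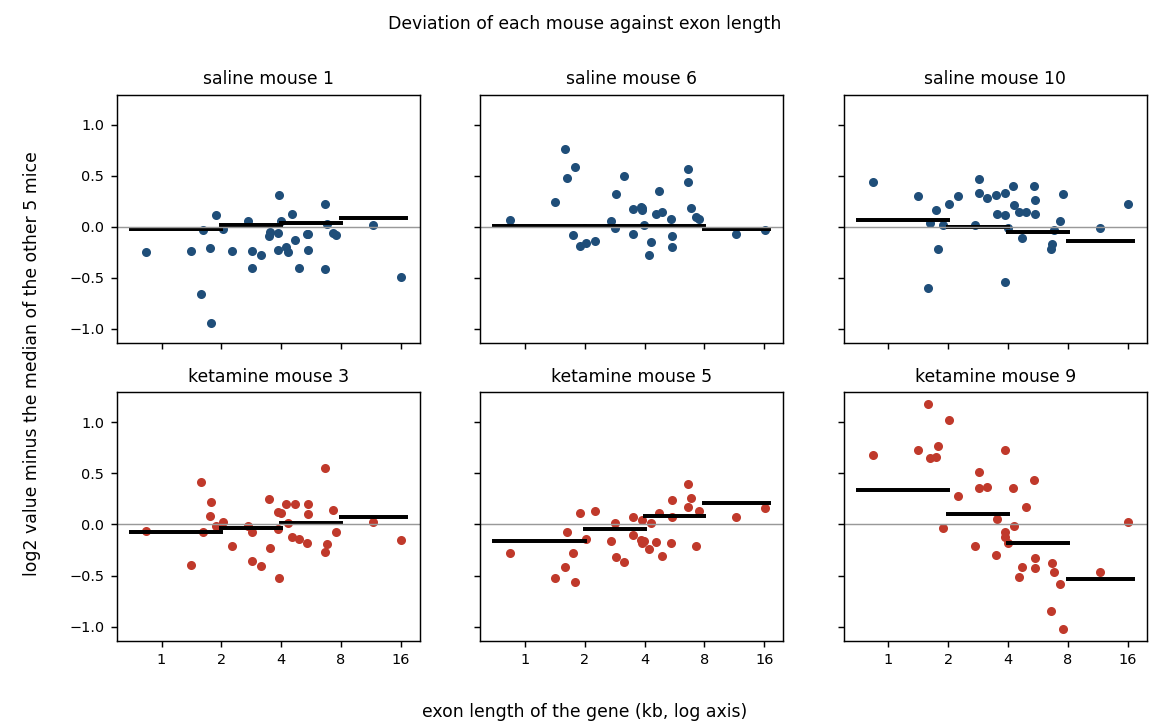
Log2 deviation of each vascular gene (points) from the median of the other 5 mice against exon length on a log axis, in 1 panel per mouse, with black bars for the median of all tested genes in each length class. In ketamine mouse 9, 6 of the 7 vascular genes under 2 kb lie above zero and 10 of the 13 of 4 to 8 kb below it. The longest, Vwf, is at 0.03.

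The 34 genes together had 28151 to 32333 normalised counts in saline and 28794 to 31155 in ketamine. The mean log2 value of the 24 endothelial genes ran from -0.144 to 0.122 around the saline mean. That of the 8 mural genes ran from -0.174 to 0.197. Some single roles spread more. The 3 smooth muscle genes ran from -0.46 in saline mouse 1 to 0.58 in saline mouse 6, beside -0.10 to 0.034 for the 5 pericyte and mural genes. In ketamine mouse 9 the 5 endothelial receptors were at -0.28 and the 5 other endothelial genes at 0.32. The 2 collagen IV genes ran from -0.67 in ketamine mouse 9 to 0.18 in ketamine mouse 5. Over the same 6 mice, the mean of the red blood cell genes ranged from -0.62 to 2.41 and that of the fibroblast genes from -0.46 to 1.02. Red blood cell genes, including near-identical globin copies, summed to 1435 to 1904 in saline and to 949, 1044 and 8996 in ketamine mice 3, 5 and 9. The source of these reads was not tested. Microglial genes ranged from -0.15 to 0.24. No difference between these lists was tested.

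**Figure D5:**
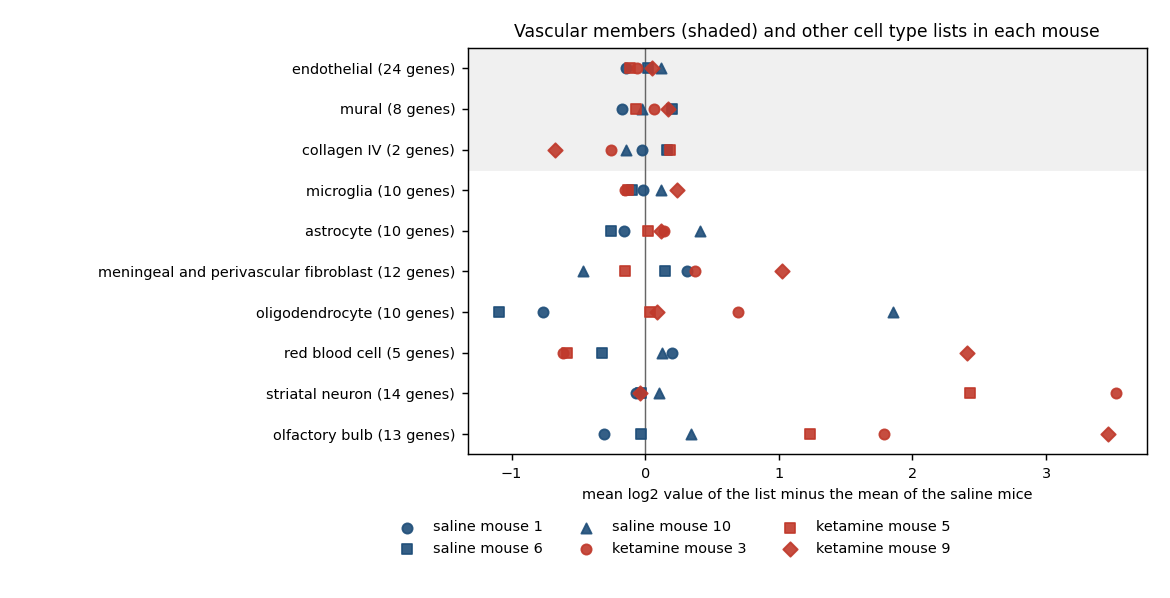
Mean log2 value of each gene list shown, in each mouse, minus the mean of the saline mice. The choroid plexus and cortical excitatory neuron lists are not drawn. The 24 endothelial and 8 mural genes stay within 0.20 of zero, while the 2 collagen IV genes reach -0.67 in ketamine mouse 9. Red blood cell, oligodendrocyte, striatal and olfactory bulb lists spread over 2 log2 units or more.

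A further 90 genes of vessel biology were read from lists of growth factors, Notch and Wnt signalling, and other endothelial, mural and basement membrane genes. Of these, 52 were higher and 38 lower, with a median of 0.05, and 0 were called by limma or edgeR. DESeq2 called 2 higher, where 0.899% of all genes tested were called higher, and 1 lower, where 0.229% were called lower. In 7 of the 90 every ketamine mouse was above every saline mouse, where 5.69% of all genes tested did so, and in 2 every one was below, where 4.66% did so. Dll1, a Notch ligand, had 115, 126 and 150.4 in saline and 254, 241 and 341 in ketamine, without overlap. Its log2 fold change was 1.08 (95% interval 0.60 to 1.56), with an adjusted p of 0.301 by limma and 0.0025 by DESeq2. Wnt7a, a Wnt ligand that neural cells send to brain endothelium, had 243, 222 and 318 in saline and 508, 424 and 609 in ketamine (0.97, adjusted p 0.356 by limma and 0.00996 by DESeq2). Both ligands were highest in ketamine mouse 9, where the striatal genes were at the saline level (-0.04) and the olfactory bulb genes at their highest (3.46). Cd34, a sialomucin of endothelial and progenitor cells, had 3238, 3204 and 2393 in saline and 1025, 1742 and 1735 in ketamine (95% interval of the log2 fold change -1.57 to -0.43, adjusted p 0.416 by limma and 0.0244 by DESeq2). Without ketamine mouse 9 the log2 fold changes of Dll1, Wnt7a and Cd34 were 0.93, 0.84 and -1.13. The cortical excitatory neuron genes were also lower in ketamine, most in mouse 3 (-1.01), where Cd34 was lowest, and least in mouse 5 (-0.18). Within saline and within ketamine, Cd34 and the neuron genes put the mice in the same order. Cd34 was nearly equal in ketamine mice 5 and 9 (1742 and 1735), though the neuron genes were at -0.18 and -0.65. Saline mouse 10, the lowest saline mouse for both, had the neuron genes at -0.28 and Cd34 at 2393. Its neuron genes were thus below those of ketamine mouse 5, while its Cd34 was above. The part of other cell types in these 3 values was not tested.

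The other genes of these lists lay to both sides of zero. The 10 Notch pathway genes had 7 higher and 3 lower with a median of 0.13, and Notch3, the Notch receptor of mural cells, had 359, 476 and 479 in saline and 649, 573 and 269 in ketamine (0.10). The 13 Wnt and Norrin genes had 9 higher and 4 lower with a median of 0.08. The 11 vascular growth factors had 8 higher and 3 lower with a median of 0.13 and 0 called by any of the 3 tools, among them Vegfa at 0.03 and Pdgfb, the ligand of Pdgfrb, at 0.07. The 28 further endothelial genes had 13 higher and 15 lower (median -0.01), the 16 further mural genes 9 and 7 (0.07), and the 14 further basement membrane genes 7 and 7 (0.01). These medians also depended on ketamine mouse 9. Without it they were 0.04 for the growth factors, 0.22 for the Notch genes and 0.17 for the Wnt and Norrin genes. For the endothelial and mural genes they were -0.11 and 0.09. The basement membrane median became 0.20, with 12 genes higher and 2 lower, beside -0.0068 over all genes tested. Several of these genes are long, such as Hspg2 (14357 exon bases). Among all genes over 8 kb, the median deviation from the other 5 mice was 0.21 for ketamine mouse 5 and 0.071 for ketamine mouse 3. It was 0.087, -0.021 and -0.14 for saline mice 1, 6 and 10. With all 6 mice, centring by exon length gave a basement membrane median of 0.085. What exon length contributed to the 0.20 was not tested. Mylk, the kinase that starts smooth muscle contraction and that other cells also express, had 367, 431 and 479 in saline and 613, 649 and 679 in ketamine. Its groups did not overlap and its log2 fold change was 0.61 (95% interval 0.26 to 0.96), but its adjusted p was 0.425 by limma and 0.0623 by DESeq2. In the lists where no tool called a gene, the smallest limma p among growth factors was that of Bmp6, at 0.69 (SE 0.305, adjusted p 0.875), and among basement membrane genes that of the linker protein Nid1, at 0.43 (SE 0.202, adjusted p 0.908). Without ketamine mouse 9 these were 0.36 and 0.26.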

How the data were processed

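Total RNA with an integrity number above 8 was sequenced as 100-base paired reads, and the authors aligned reads to mm9 with TopHat2 2.0.11 and counted them per gene with HTSeq. The strand setting and the annotation were not given in the sources used here. The deposited signal values are read counts divided by a DESeq2 size factor per library, with 37620 genes in 6 libraries. Whole reads were recovered from the steps of the values (at least 99.989% of values whole, within 0.006). Gene lengths and positions came from an annotation of the same build.

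The main test was limma 3.58.1 with a variance trend in R 4.3.3, two-sided, on log2(normalised count + 1) over 16127 genes (those averaging 10 or more), with Benjamini-Hochberg adjustment over all of them and a threshold of 0.05. Fold changes of low genes are understated on this scale. For the recovered reads, edgeR 4.0.16 and DESeq2 1.42.0 were alternatives, as were other scalings, pseudocounts and filters, and leaving out mice. Fits were tested on simulated data. Groups came from the labels (3 saline, 3 ketamine), and no value column was left unused. Vascular genes and lists were chosen with earlier results of these data known. Values per mouse were given for Cldn5, Eng, Kdr, Slc2a1, Slco1c1, Sox18, Itm2a, Ly6c1, Rgs5, Vtn, Acta2 and Col4a2 by rule: groups without overlap, or the highest count per kilobase or the largest range within a group in their role. Flt1, Abcc9, Tagln, Myh11, Col4a1 and the genes of other lists were added after their values were seen. Promoter windows came from RefSeq, with 10 of the 34 genes not matched (Sox17, Tagln, Cdh5, Pdgfrb, Esam, Pecam1, Sox18, Myh11, Vwf and Slc7a5).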

Additional observations from a re-analysis of the deposited data

How the results depend on the processing

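None of the 34 vascular genes was called under any of the 16 alternatives, with a smallest adjusted p of 0.106 when ketamine mice 3 and 5 were left out together and 0.419 without ketamine mouse 9, both by limma. No paired analysis was possible because the groups share no mouse numbers. DESeq2 called 182 genes over all genes tested, none of them vascular members. With another tool or scaling, signs turned for 3 genes by edgeR, 1 by DESeq2, 2 under upper-quartile scaling and 2 with centring by exon length. By edgeR the log2 fold changes were 0.0063 for Cldn5, 0.0025 for Tie1 and 0.020 for Pdgfrb. Pdgfrb was at 0.011 by DESeq2. Under upper-quartile scaling Tie1 was at 0.020 and Pdgfrb at 0.026. Centring by exon length, chosen after seeing the data, gave 0.011 for Tie1 and 0.046 for Pdgfrb. The cause was not tested.

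With ketamine mice 3 and 5 left out, the lone ketamine mouse 9 is assumed to vary like the others. The endothelial median was then 0.083, with Cldn5 at 0.55, Esam at 0.28, Tie1 at 0.16, Sox17 at 0.11, Emcn at 0.28, Nostrin at -0.0046 and Myh11 at -0.31.

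Leaving out mice turned more signs: 14 of 34 without ketamine mouse 9, among them Vtn, Acta2 and Itm2a, and 4 to 8 of 34 without each other mouse. Leaving out 1 mouse at a time gave 0 to 1 genes called over all genes and 6 to 18 vascular genes higher in ketamine. In all of these fits Tagln stayed higher in ketamine. Rgs5, Abcc9, Slco1c1, Slco1a4, Slc7a5, Cdh5, Eng, Kdr, Sox17, Col4a1 and Col4a2 stayed lower, and none of them was called. Ranges of the log2 fold change that crossed zero were -0.40 to 0.11 for Cldn5, -0.029 to 0.21 for Ocln, -0.25 to 0.044 for Esam, -0.025 to 0.20 for Pecam1, -0.20 to 0.062 for Flt1, -0.21 to 0.045 for Tek, -0.14 to 0.077 for Tie1, -0.062 to 0.22 for Slc2a1, -0.13 to 0.051 for Abcb1a, -0.038 to 0.16 for Mfsd2a, -0.18 to 0.063 for Erg, -0.21 to 0.17 for Sox18, -0.21 to 0.24 for Ly6c1, -0.067 to 0.36 for Itm2a, -0.090 to 0.25 for Vwf, -0.27 to 0.036 for Emcn, -0.034 to 0.11 for Nostrin, -0.087 to 0.14 for Pdgfrb, -0.071 to 0.50 for Vtn, -0.21 to 0.32 for Anpep, -0.075 to 0.58 for Acta2 and -0.12 to 0.29 for Myh11.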
